A study of Mus musculus with 11 samples.

Results

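The immunity-related GTPases (IRGs) are a family of interferon-induced GTPases, and 4 of them were followed here by name: Irgm1, Irgm2, Igtp (also known as Irgm3) and Iigp1 (also known as Irga6). They were found as the entries of those names in the deposited count table, 4 of its 42375 named genes, and all 4 were among the 15024 genes kept for testing. The libraries were RNA-seq of bone marrow derived macrophages from C57BL/6 mice, labelled M0 or M1, the usual names for resting and for inflammatory macrophages. For 16 hours the cells carried a gapmer, an antisense oligonucleotide that leads to cleavage of the RNA it pairs with, either NS, the control, or one against the long noncoding RNA MERRICAL, labelled KD. There were 3 libraries each of M0 NS, M0 KD and M1 NS, numbered 1, 2 and 4 in the labels, and 2 of M1 KD, numbered 5 and 6. All 4 groups had received a gapmer, so none is untreated.

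The sources used here give neither the meaning of those numbers nor the stimulus that made the M1 cells. Since M1 KD carries other numbers than M1 NS, whatever those numbers mark cannot be told apart from the MERRICAL gapmer in M1 cells. No label says that the libraries came from separate cultures, so each p-value reflects the spread among the libraries alone, and that spread may be technical. MERRICAL itself, which is not among the gene names of the count table, was not analysed here. Totals ran from 30040632 to 43250392 counts per library, and the raw count of a member ran from 518 to 94238, so counting error was small beside the spread between libraries. The 7 macrophage markers summed to 7047 to 9192 CPM (counts relative to the library size after TMM scaling) over the 11 libraries, none of them at 0 in any group. That sum joins markers that went opposite ways. From M0 NS to M1 NS, mean Csf1r went from 4010 to 707 CPM and mean Cd68 from 1154 to 362. Mean Emr1 went from 2118 to 4296 CPM and mean Cd14 from 337 to 1492. By the test described below, 4 of the 7 were called higher in M1 NS than in M0 NS and 2 lower. Of all genes tested, 26.9% were called higher and 28.6% lower. The 7 M1 markers, among them Nos2 and Il12b, summed to 93.2 to 182 CPM over the M0 libraries and 10314 to 17608 over the M1 libraries.

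In mouse macrophages, interferon gamma signals through its receptor and the kinases JAK1 and JAK2 to genes whose promoters hold gamma-activated sites. Type I interferon signalling acts at the interferon-stimulated response element (ISRE), with STAT2 and IRF9 among its factors, and IRF1 binds the same kind of element. The IRG proteins made in response are regulators or effectors. The regulatory IRGM proteins, Irgm1, Irgm2 and Igtp, sit on membranes of the cell's own organelles and keep the effector IRGs inactive there. Effectors such as Iigp1 coat and break the vacuoles of intracellular parasites and bacteria, among them Toxoplasma.

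Irgm1 lay on the minus strand of chromosome 11 at chr11:48861968-48871683 (GRCm38, GENCODE annotation), a protein-coding gene whose longest coding transcript has 3 exons. Igtp (chr11:58199556-58207591) and Irgm2 (chr11:58199618-58222782) lay 9328 kb away on the plus strand, also with 3 exons each. The spans of Igtp and Irgm2 overlap on the same strand, because 1 of 3 coding transcripts of Irgm2 starts inside Igtp, and 162 exon bases belong to both genes. The sources used here do not say how reads in those bases were counted. The shared bases make up 8.01% of the exon bases of Igtp and 4.39% of those of Irgm2. Of all 50-base stretches in the transcripts, 0.310% in Irgm1, 7.77% in Irgm2 and 11.8% in Igtp also occurred in another gene, all those of Igtp in Irgm2.

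The promoters of the 3 IRGM genes, all of which rose with M1, are shown. The promoter of Iigp1, which rose too, is not reported here. Each one shown runs from 250 bases before to 50 after the transcription start, read 5′ to 3′ on the gene's strand from RefSeq (GRCm38.p6). Capitals mark matches, on either strand, to the gamma-activated site TTCNNNGAA or the ISRE core GAAANNGAA.
Irgm1, chr11:48871371-48871670, minus strand: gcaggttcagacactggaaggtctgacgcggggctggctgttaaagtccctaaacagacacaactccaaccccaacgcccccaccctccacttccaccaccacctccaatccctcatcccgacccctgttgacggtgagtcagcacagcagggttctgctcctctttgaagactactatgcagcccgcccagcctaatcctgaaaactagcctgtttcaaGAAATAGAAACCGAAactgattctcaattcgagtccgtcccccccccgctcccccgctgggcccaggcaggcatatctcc
Igtp, chr11:58199306-58199605, plus strand: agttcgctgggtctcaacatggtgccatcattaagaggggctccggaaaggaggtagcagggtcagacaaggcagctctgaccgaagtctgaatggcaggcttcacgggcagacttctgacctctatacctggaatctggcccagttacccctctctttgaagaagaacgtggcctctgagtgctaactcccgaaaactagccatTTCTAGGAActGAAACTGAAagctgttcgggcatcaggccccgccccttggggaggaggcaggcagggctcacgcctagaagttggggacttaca
Irgm2, chr11:58214727-58215026, plus strand: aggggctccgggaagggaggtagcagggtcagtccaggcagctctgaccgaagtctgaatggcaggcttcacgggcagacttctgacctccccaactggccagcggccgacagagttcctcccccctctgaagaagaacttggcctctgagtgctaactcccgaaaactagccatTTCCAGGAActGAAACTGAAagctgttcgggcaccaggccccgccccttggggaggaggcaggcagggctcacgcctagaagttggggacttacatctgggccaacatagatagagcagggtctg
The Irgm1 window held 2 overlapping ISRE core matches, GAAATAGAA starting 30 bases and GAAACCGAA starting 24 bases before the start, and no gamma-activated site letters. The Igtp window held TTCTAGGAA 45 bases and GAAACTGAA 34 bases before the start. Irgm2 held TTCCAGGAA 75 bases and the same GAAACTGAA 64 bases before its start. The longest run of letters shared by the Igtp and Irgm2 windows was 61 bases, against 11 bases between Irgm1 and either of them. Of all 32851 promoters in that table, 8.30% held the gamma-activated site letters and 8.56% the ISRE core. Of 12 IRG promoters in it, 6 held the first and 8 the second, but several belong to near-identical gene copies. A match is a description of the letters in the window, not a measured binding site, and no match says only that these letters are not in it.

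The question of M1 NS against M0 NS was how the IRG genes differ between the 2 states under the control gapmer. All 4 genes were higher in M1 NS, from 6.20-fold for Irgm2 to 63.2-fold for Iigp1. The test was edgeR's quasi-likelihood test over all 11 libraries with Benjamini-Hochberg adjustment over all genes tested, and a gene is called at an adjusted p under 0.05. Of all genes tested, 55.5% were called in this comparison, 26.9% higher and 28.6% lower, and 61.4% had CPM ranges that did not overlap. Over all genes the log2 fold changes had a median of -0.04, and over the 4 IRG genes one of 3.50. With libraries scaled by their size only, the median of all genes moved by -0.39 and 26.7% of the calls were higher, against 48.5% with TMM, and the 4 genes were still called higher.

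Irgm1, a regulatory IRG also tied to autophagy and mitochondria, was at 117, 163 and 66.9 CPM in M0 NS libraries 1, 2 and 4, and at 856, 840 and 706 CPM in M1 NS libraries 1, 2 and 4. Every M1 NS library was above every M0 NS library. Its log2 fold change was 2.79 (SE 0.26, adjusted p = 2.80e-06). Irgm2, a regulatory IRG of the Golgi, was at 91.1, 123 and 54.1 CPM in M0 NS and at 585, 502 and 575 CPM in M1 NS. The ranges lay apart here too, and the log2 fold change was 2.63 (SE 0.26, adjusted p = 3.96e-06).

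Igtp, a regulatory IRG of the endoplasmic reticulum and lipid droplets, was at 46.0, 64.0 and 32.1 CPM in M0 NS and at 837, 900 and 892 CPM in M1 NS. It was 18.5-fold higher, or 4.21 on the log2 scale (SE 0.26, adjusted p = 8.83e-08). The M1 NS libraries lay close together, at 876 ± 34.4 CPM (SD, n = 3). Iigp1, the effector, was at 32.5, 59.8 and 12.3 CPM in M0 NS and at 2361, 1547 and 2702 CPM in M1 NS. Its M0 NS libraries differed most among themselves, and its log2 fold change of 5.98 had the widest error of the 4 (SE 0.58, adjusted p = 3.29e-06). Together the 4 genes took 0.0191 to 0.0449% of the counts of an M0 NS library and 0.319 to 0.440% of those of an M1 NS library.

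**Figure D1:**
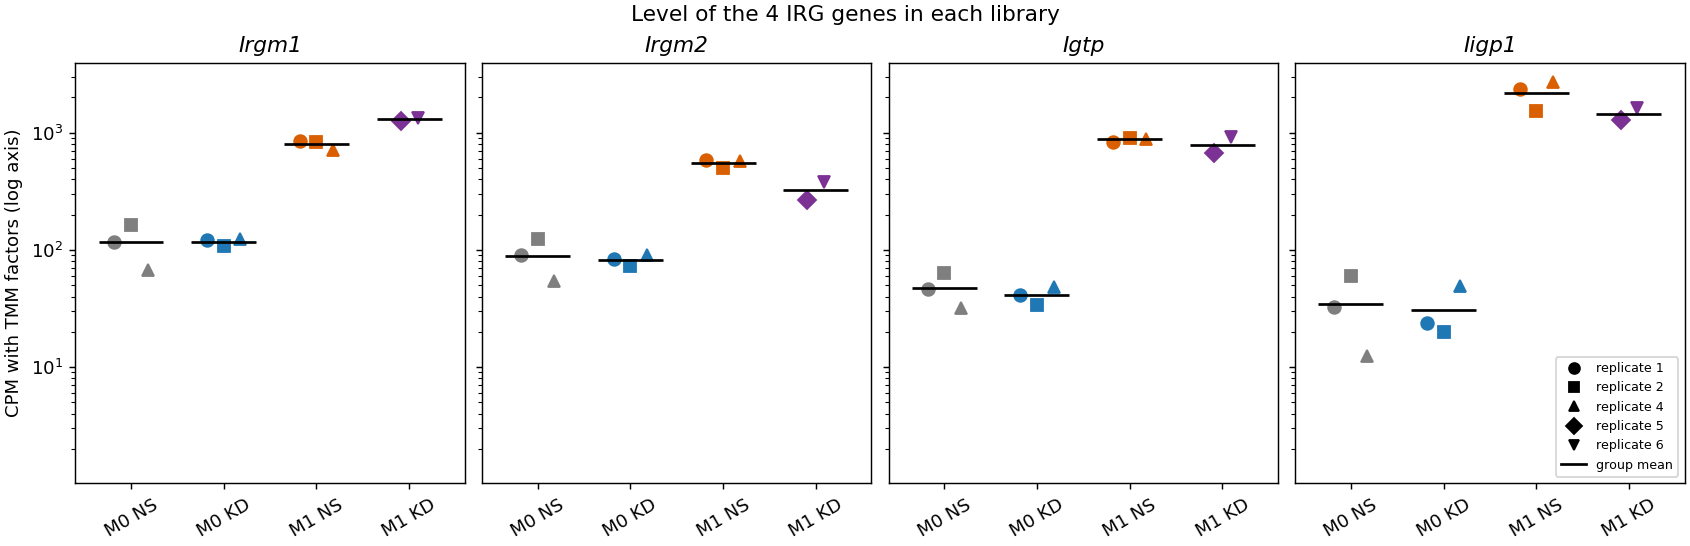
CPM with TMM scaling on a log axis for the 4 IRG genes, with a point for each of the 11 libraries by group (symbols give the label number) and a line at each group mean. All 5 M1 libraries sit above all 6 M0 libraries for each gene, and within M1 the KD libraries are above the NS libraries for Irgm1 (1258 and 1339 against 706 to 856 CPM) and below them for Irgm2.

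The same step was seen under the MERRICAL gapmer, in M1 KD against M0 KD. All 4 genes were called higher again, where 58.3% of all genes tested were called in either direction, 26.9% were called higher and 74.9% had ranges apart. Size-only scaling moved the median of all genes by -0.48, and the share of calls that were higher from 46.1% to 25.1%, with all 4 genes still called higher. The log2 fold change was 3.47 (SE 0.28, adjusted p = 9.81e-07) for Irgm1 and 1.96 (SE 0.27, adjusted p = 6.23e-05) for Irgm2, that is 11.1-fold and 3.90-fold. Igtp was 19.3-fold higher and Iigp1 47.2-fold higher (log2 fold changes 4.27 and 5.56, SE 0.27 and 0.58, adjusted p = 1.33e-07 and 6.88e-06). In bulk RNA, a change in the share of cells that express a gene and a change in RNA per cell cannot be told apart. Markers of other cells differed between the states as well. The 9 neutrophil markers, none at 0 in any group, summed to 1229 to 2186 CPM in M0 NS, 659 to 706 in M0 KD, 235 to 307 in M1 NS and 197 to 207 in M1 KD. Of these 9, Lcn2 was not lower in M1. Its means were 119 CPM in M0 NS, 49.3 in M0 KD, 136 in M1 NS and 151 in M1 KD. It thus held much of the M1 sums. The other 8 were called lower in both comparisons of M1 with M0. Of all 15024 genes tested, 4294 were called lower in M1 NS against M0 NS and 4715 in M1 KD against M0 KD. The 8 T and NK cell markers summed to 12.8 to 22.1 CPM in M0 NS, 8.95 to 19.8 in M0 KD, 1.43 to 3.92 in M1 NS and 8.01 to 10.3 in M1 KD. Cd4 held most of that sum in M0 NS (mean 18.1 CPM, and 1.51 in M1 NS), while Cd8a went the other way, with means of 0.196 and 1.42 CPM. Of these 8, Gzma was at 0 in every group and Klrb1c was at 0 in M1 NS. The 5 dendritic cell markers summed to 5.63 to 11.3 CPM in M0 and 100.4 to 601 in M1. Nearly all of the M1 sum was Ccr7, a chemokine receptor gene that activation also induces, with means of 1.20 CPM in M0 NS and 230 in M1 NS. From M0 NS to M1 NS, means of Flt3 went from 4.96 to 0.877 and those of Siglech from 2.07 to 0.524 CPM. Means of Xcr1 rose from 0.516 to 8.97 and those of Zbtb46 from 0.960 to 2.06 CPM. In that comparison 3 of the 5 were called higher and 2 lower, where 26.9% of all genes tested were called higher and 28.6% lower. The summed levels of the B cell (4), fibroblast (5) and erythroid (4) markers reached at most 0.988, 25.8 and 36.8 CPM. The part of these cells in the IRG levels was not tested.

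To compare the genes with one another, CPM were divided by the length of each gene's merged exons in kb. In M0 NS, Irgm2 (24.2 ± 9.36 CPM per kb), Igtp (23.4 ± 7.93) and Irgm1 (19.9 ± 8.30) could not be ranked beyond the spread of the libraries (SD, n = 3 each). Iigp1 was lowest at 5.99 ± 4.09 CPM per kb, and its highest library, at 10.3, was below the lowest Irgm1 library, at 11.5. In M1 NS, Igtp stood at 433 ± 17.02 CPM per kb and Iigp1 at 378 ± 102, with ranges that overlapped. Irgm2 (150 ± 12.3) and Irgm1 (138 ± 14.2) followed, again with overlap. In M0 KD the levels were 22.4 ± 2.27 for Irgm2, 20.4 ± 3.48 for Igtp, 20.2 ± 1.52 for Irgm1 and 5.29 ± 2.69 for Iigp1. In M1 KD (n = 2) the order was Igtp at 392 ± 85.7, Iigp1 at 250 ± 39.9, Irgm1 at 223 ± 9.86 and Irgm2 at 87.3 ± 21.7 CPM per kb, with the ranges of Iigp1 and Irgm1 overlapping. The order depends on the length used. The merged exons of Irgm1 span 5810 bases but its longest coding transcript only 2259, and with the latter length it ranked first in M0 NS (51.3 CPM per kb), M0 KD (51.9) and M1 KD (575) and next to last in M1 NS (354). With that length Iigp1 ranked first in M1 NS (706 CPM per kb, with Igtp at 433), and in M1 KD Igtp (392) came below Irgm1 and Iigp1 (467). Which transcripts the cells made was not measured.

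The question of M0 KD against M0 NS was whether the MERRICAL gapmer moved these genes in M0 cells, and none of the 4 was called. Nor was any other gene by edgeR's quasi-likelihood test over all 11 libraries: 0% of the genes tested were called, though 1947 had an unadjusted p under 0.05. That count of 0 rests on the fit, since the same test called 1103 genes when fitted on the M0 libraries alone and 385 without the filter on low counts. DESeq2 called 221 genes and limma-voom 0. None of these calls was an IRG member. The log2 fold changes were 0.02 for Irgm1 (95% interval -0.52 to 0.56, adjusted p = 0.980), -0.11 for Irgm2 (-0.65 to 0.42, 0.851), -0.20 for Igtp (-0.70 to 0.30, 0.700) and -0.18 for Iigp1 (-1.20 to 0.85, 0.884).

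The M0 KD libraries 1, 2 and 4 stood at 121, 107 and 124 CPM for Irgm1, 84.2, 73.6 and 90.1 for Irgm2, 41.3, 34.0 and 48.1 for Igtp, and 23.7, 19.99 and 48.8 for Iigp1. For each gene the range overlapped that of M0 NS, while 35.1% of all genes tested had ranges apart. These intervals allow changes up to their bounds, and so do not show that the gapmer left the genes unmoved. The M0 NS libraries lay far apart. Library 2 was the highest and library 4 the lowest of M0 NS for all 4 genes, with median deviations from the group mean of 0.56 and -0.67 (log2). The other 13 IRG genes deviated alike in those libraries, by medians of 0.63 and -0.76, as did 9 guanylate-binding protein genes, by 0.51 and -0.60. The 11 interferon gamma signalling genes deviated less, by 0.14 and -0.18.

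**Figure D2:**
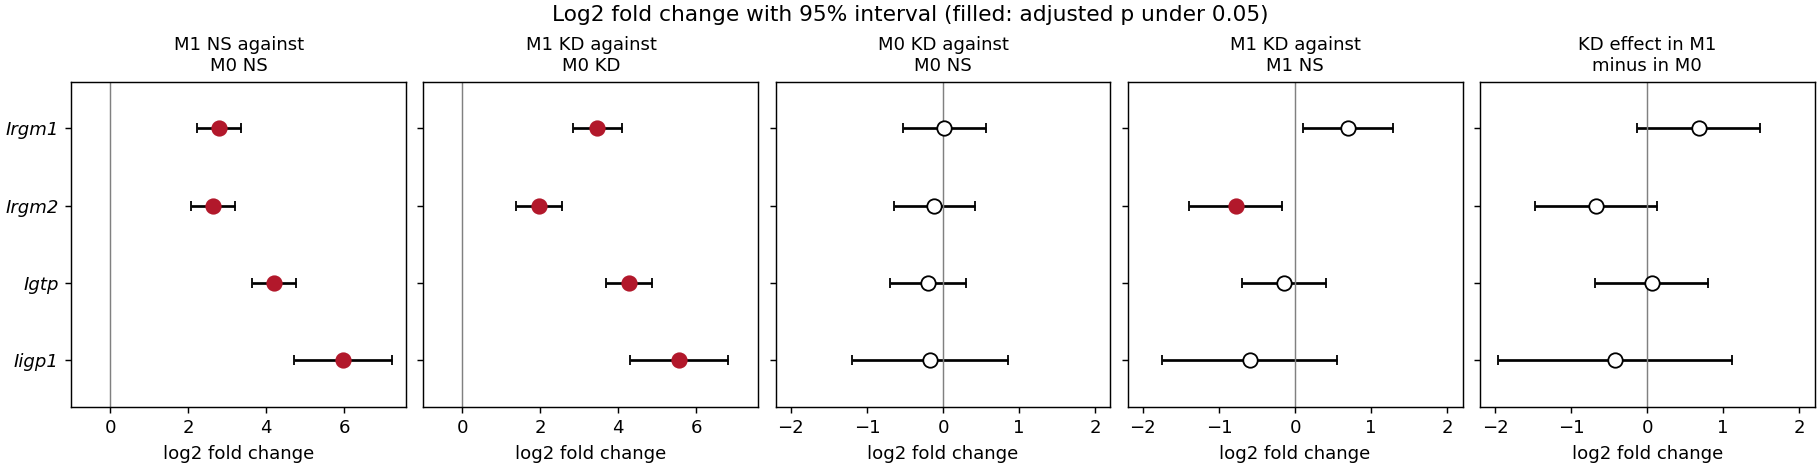
Log2 fold change with its 95% interval for the 4 IRG genes in each of the 5 comparisons; filled points have an adjusted p under 0.05. Both M1 against M0 comparisons are filled for all 4 genes, and under the MERRICAL gapmer only Irgm2 in M1 cells (-0.78) is.

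The question of M1 KD against M1 NS was the same for M1 cells. Irgm2 was called lower in M1 KD than in M1 NS, Irgm1 had higher values in both M1 KD libraries but was not called, and Igtp and Iigp1 overlapped with their controls. So 1 of 4 was called, while 36.8% of all genes tested were, 17.6% higher and 19.2% lower. A count this close to the background is no result about the 4 genes as a group. The median log2 fold change was -0.37 for the 4 genes and 0.00 for all genes. With upper-quartile scaling the median of all genes moved by 0.15, and 61.3% of the calls were higher against 47.8% with TMM. With it Irgm1 was called higher (0.85, adjusted p = 0.0242) and Irgm2 was not called (-0.63, adjusted p = 0.0823).

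Irgm2 was at 266 and 379 CPM in M1 KD libraries 5 and 6, below the lowest M1 NS library at 502 CPM. Its log2 fold change was -0.78 (SE 0.28, 95% interval -1.39 to -0.17, adjusted p = 0.0452), close to the threshold. Over 22 other settings it kept its sign and was called in 10, with log2 fold changes from -1.07 to -0.56 and adjusted p-values from 7.22e-04 to 0.278. Leaving out any of 8 of the 11 libraries, M1 KD library 5 among them, ended the call.

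Irgm1 was at 1258 and 1339 CPM in M1 KD, above the highest M1 NS library at 856 CPM. Its log2 fold change was 0.70 (SE 0.27, 95% interval 0.10 to 1.29, adjusted p = 0.0636), which missed the threshold. Over the same 22 settings its log2 fold change ran from 0.65 to 0.85, and it was called in 6 of them. Igtp was at 671 and 916 CPM in M1 KD, around the M1 NS libraries at 837 to 900, and the log2 fold change was -0.14 (SE 0.25, 95% interval -0.70 to 0.41, adjusted p = 0.687). Iigp1 was at 1292 and 1621 CPM against 1547 to 2702 in M1 NS, and the log2 fold change was -0.60 (SE 0.53, 95% interval -1.75 to 0.56, adjusted p = 0.403). Ranges did not overlap for 2 of the 4 genes, against 52.4% of all genes tested.

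The ratio of raw counts of a gene pair within a library does not depend on how libraries are scaled, and it was looked at after the values of both genes had been seen. The Irgm1 to Irgm2 ratio was 1.29, 1.33 and 1.24 in M0 NS. It was 1.44, 1.46 and 1.37 in M0 KD, apart from M0 NS by a small step (exact permutation p = 0.1, adjusted 0.15), and 1.46, 1.67 and 1.23 in M1 NS. In M1 KD it was 4.74 and 3.53, above all 9 other libraries. The geometric mean thus went from 1.44 in M1 NS to 4.09 in M1 KD (exact permutation test, two-sided, p = 0.1, adjusted over 24 such tests 0.15), and 0.1 is the smallest p that 3 libraries against 2 allow. These ratios compare counts, not molecules, since the genes differ in length.

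Ratios to Igtp, which overlaps Irgm2, were taken in the same way. The Irgm2 to Igtp ratio was 0.699, 0.558 and 0.645 in M1 NS and 0.396 and 0.414 in M1 KD. The Irgm1 to Igtp ratio was 1.02, 0.934 and 0.791 in M1 NS and 1.87 and 1.46 in M1 KD. Both pairs of ranges lay apart, one lower and one higher in M1 KD (each exact permutation p = 0.1, adjusted 0.15). The Irgm1 to Igtp ratio was also higher in M0 KD (2.57 to 3.15) than in M0 NS (2.08 to 2.55), with the same p-values. The Irgm1 to Iigp1 ratio lay apart as well, at 0.261 to 0.543 in M1 NS and 0.826 to 0.973 in M1 KD (exact permutation p = 0.2, adjusted 0.282). The Irgm2 to Iigp1 ratio, at 0.213 to 0.325 in M1 NS and 0.205 to 0.234 in M1 KD, overlapped. Between M0 NS and M1 NS, Igtp gained on both other regulatory genes, with the Irgm1 to Igtp ratio going from 2.08 to 2.55 down to 0.791 to 1.02, and the Irgm2 to Igtp ratio from 1.69 to 1.98 down to 0.558 to 0.699.

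**Figure D3:**
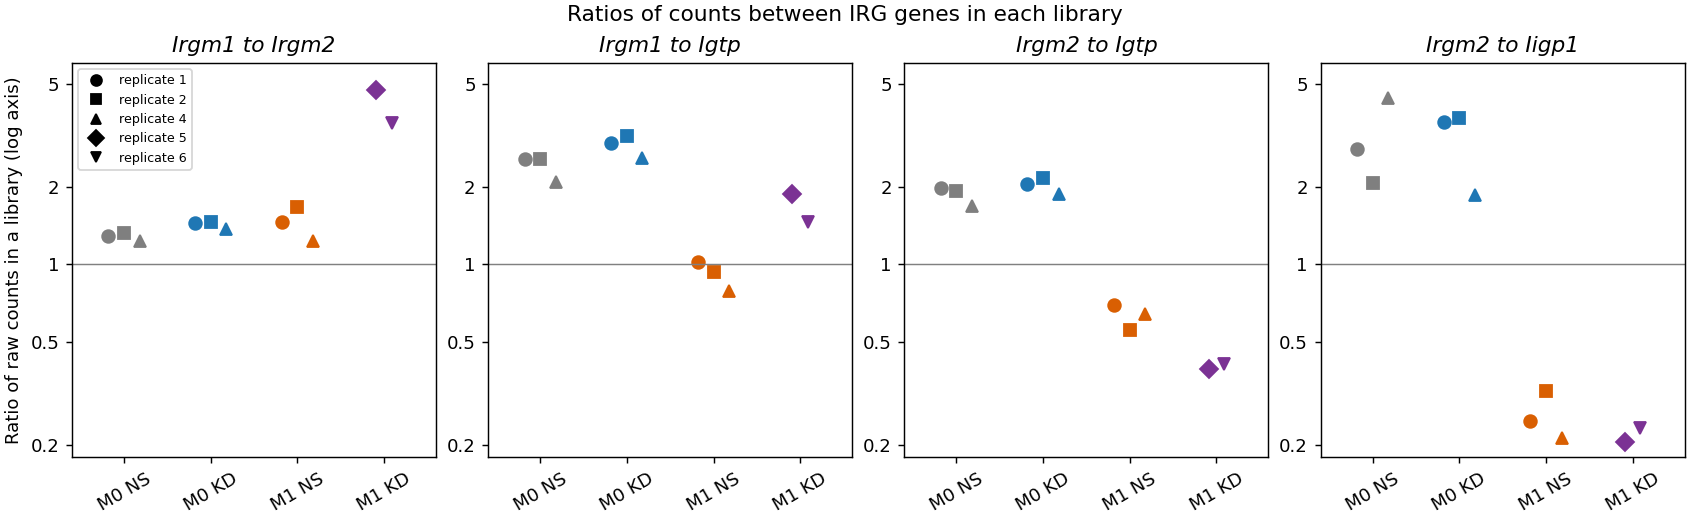
Ratio of raw counts between gene pairs in each of the 11 libraries on a log axis, with a grey line at equal counts. For Irgm1 to Irgm2 the M1 KD libraries (4.74 and 3.53) lie above the other 9, which run from 1.23 to 1.67, while the Irgm2 to Iigp1 ratios of M1 KD and M1 NS overlap.

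Whether the gapmer's effect differed between M1 and M0 cells was tested as the difference of the 2 log2 fold changes. It was 0.68 for Irgm1 (SE 0.37, adjusted p = 0.196), -0.67 for Irgm2 (SE 0.37, 0.202), 0.06 for Igtp (SE 0.34, 0.919) and -0.42 for Iigp1 (SE 0.70, 0.691). None of the 4 was called, where 27.3% of all genes tested were. A difference between M1 and M0 cells in the gapmer's effect on these 4 genes was therefore not shown.

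Beside the 4 genes, 13 other IRG genes were listed and tested. In M1 NS against M0 NS 26.9% of all genes tested were called higher and 28.6% lower. Of these 13 IRG genes 11 rose, 1 fell and 1 was not called, with a median log2 fold change of 2.997. The strongest by p were Gm4841 (log2 fold change 8.26, SE 0.43, adjusted p = 2.26e-08; 0.124 ± 0.108 CPM in M0 NS and 38.6 ± 2.91 in M1 NS) and Tgtp1 (7.59, SE 0.47, adjusted p = 9.26e-08). Tgtp1 encodes an IRG first described as a T cell GTPase, an effector also known as Irgb6. The gene that fell was Irgq (-0.47, SE 0.11, adjusted p = 0.00314), and Irgc1, at under 1 CPM in every group, was not called (0.02, adjusted p = 0.988). Irgq and Irgc1 lie on chromosome 7, away from the clusters that hold the others. With M1 KD against M0 KD, 10 of the 13 rose and 3 were not called, where 26.9% of all genes tested were called higher.

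The MERRICAL gapmer in M1 cells went with lower values of several of these genes. Of the 13, 6 were called lower and 2 higher in M1 KD against M1 NS, and 5 were not called, with a median of -0.93. Over all genes tested 19.2% were called lower and 17.6% higher. Gm4841 fell from 38.6 ± 2.91 (SD, n = 3) to 7.72 ± 0.980 CPM (SD, n = 2), at -2.33 on the log2 scale (SE 0.33, adjusted p = 2.91e-04). Tgtp1 fell from 439 ± 185 to 105 ± 32.1 CPM (-2.06, SE 0.42, adjusted p = 0.00261). The others called lower were Tgtp2 (-2.04), F830016B08Rik (-1.69), Gm12185 (-1.11) and 9930111J21Rik1 (-0.93), named after their values were seen, as were the 2 that rose, Irgq (0.42, called in 17 of 22 other settings) and Irgc1 (1.98, from 0.110 to 0.430 CPM, called in 14 of 21). Ifi47, an IRG effector also known as Irgd, was at 547 and 284 CPM, but was not called (-0.95, adjusted p = 0.0623).

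The count of 6 lower was 3 without M1 KD library 5, 4 without M1 KD library 6, 4 without M1 NS library 4 and 3 at an adjusted p under 0.01. It ran from 3 to 8 over the 22 settings, and the count of 2 higher from 0 to 2, with 0 without M1 KD library 5 or M1 NS library 1 and 1 without M1 KD library 6 or M1 NS library 4. Both Gm4841 and Tgtp1 were called lower in all 22. Of the 50-base stretches of Tgtp1, Tgtp2 and 9930111J21Rik1, 81.2%, 86.6% and 82.9% also occur in another gene, so the values of these genes are uncertain where reads could not be placed. In M0 KD against M0 NS none of the 13 was called (median 0.11), where 0% of all genes tested were, so this count says nothing about the IRG genes.

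Positions were compared with the changes in M1 KD against M1 NS as a description. Over all genes tested 19.2% were called lower and 17.6% higher there. The 8 IRG genes around Irgm1 (chr11:48861968-49096974) held 4 that were called lower in M1 KD, namely Tgtp1, Tgtp2, Gm12185 and 9930111J21Rik1, while Irgm1 at the edge of that cluster had values above its controls. The cluster of 3 around Igtp (chr11:58187739-58222782) held Irgm2, called lower, Igtp, and Gm12250, annotated as a processed pseudogene, at 264 CPM in M1 NS and 265 in M1 KD. Iigp1 (chr18:60376027-60392634, plus strand, 3 exons in its longest coding transcript) lies with Gm4951, Gm4841 and F830016B08Rik on chromosome 18 between 60212080 and 60392634, where the last 2 were called lower. Of its 50-base stretches 1.69% occur in another gene. Each of the 3 clusters held genes that were called and genes that were not. With 36.8% of all genes tested called, such a mix is no result about the clusters.

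**Figure D4:**
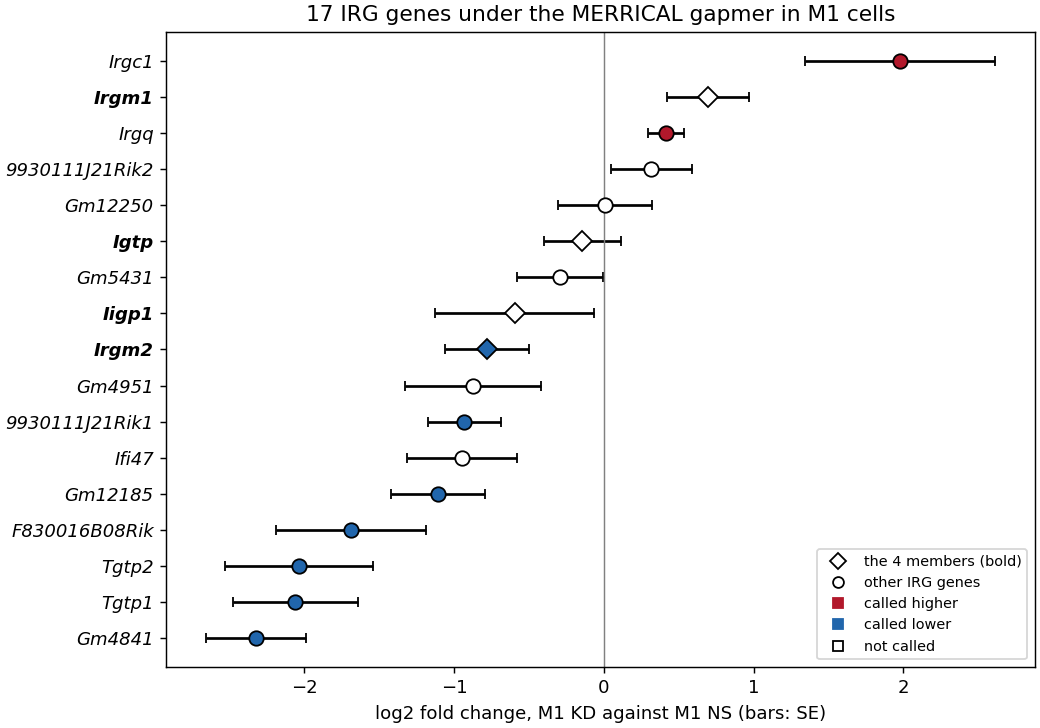
Log2 fold change of 17 IRG genes in M1 KD against M1 NS with SE bars, ordered by size, with Irgm1, Irgm2, Igtp and Iigp1 as diamonds with bold names; red is called higher, blue lower and white not called. Irgm1 (0.70) lies near the top and Irgm2 (-0.78) among the genes with lower values, which reach -2.33 for Gm4841.

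The genes that lead to IRG transcription were read from the same tests, in the order of the pathway. Ifng itself, the ligand, reached at most 11 counts in a library and was not tested. Of 11 tested genes of interferon gamma signalling, 9 rose in M1 NS against M0 NS, 1 fell and 1 was not called. For comparison, 26.9% of all genes tested were called higher and 28.6% lower. The receptor chain gene Ifngr1 fell (log2 fold change -2.46, adjusted p = 1.97e-08) and Ifngr2 rose (0.47, adjusted p = 0.0110), though the latter was called in 22 of 24 other settings. Among the kinases Jak2 rose (3.33, adjusted p = 4.11e-08) and Jak1 was not called (0.16, adjusted p = 0.337). The transcription factors Irf1 (3.37) and Irf8 (1.23) rose. The feedback inhibitors Socs3 (6.14, adjusted p = 7.38e-09) and Socs1 (7.13, adjusted p = 1.27e-08) were the 2 strongest by p.

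In M1 KD against M1 NS, 4 of these 11 rose, 1 fell and 6 were not called, with a median of 0.22, where 36.8% of all genes were called. The strongest by p were the transcription factors Irf8 and Irf1. Irf8 went from 810 ± 252 to 3043 ± 590 CPM (1.91 on the log2 scale, SE 0.24, adjusted p = 1.17e-04). Irf1 went from 1353 ± 241 to 3962 ± 739 CPM (1.55, SE 0.20, adjusted p = 1.50e-04). Both rose in each of the 22 other settings, and no M1 KD library was below an M1 NS library. The inhibitors Socs1 (1.16) and Ptpn2 (0.87) also rose and the phosphatase gene Ptpn6 fell (-0.63, adjusted p = 0.0310), named after their values were seen. The receptor and kinase genes were not called, with Ifngr1 at 0.22, Ifngr2 at 0.23, Jak1 at -0.26 and Jak2 at -0.20.

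Of 8 genes of type I interferon signalling, 6 rose and 1 fell in M1 NS against M0 NS. Over all genes tested 26.9% were called higher and 28.6% lower. Among the 6, Irf9 (0.31) was called in 12 of 24 other settings and turned to -0.0802, not called, with size-only scaling. The strongest by p were Usp18, an inhibitor at the receptor (4.40, adjusted p = 1.99e-07), and the factor Irf7 (3.80, adjusted p = 1.14e-05). In M1 KD against M1 NS only the receptor gene Ifnar1 was called, lower (-0.36, adjusted p = 0.04996), and it was called in 7 of 22 other settings. So 1 of the 8 was called, where 36.8% of all genes tested were. Stat2 (0.04), Irf9 (0.01) and Ifnb1 (-0.07, at under 1 CPM) were not called. In M0 KD against M0 NS none of the genes of either list was called, where 0% of all genes tested were.

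**Figure D5:**
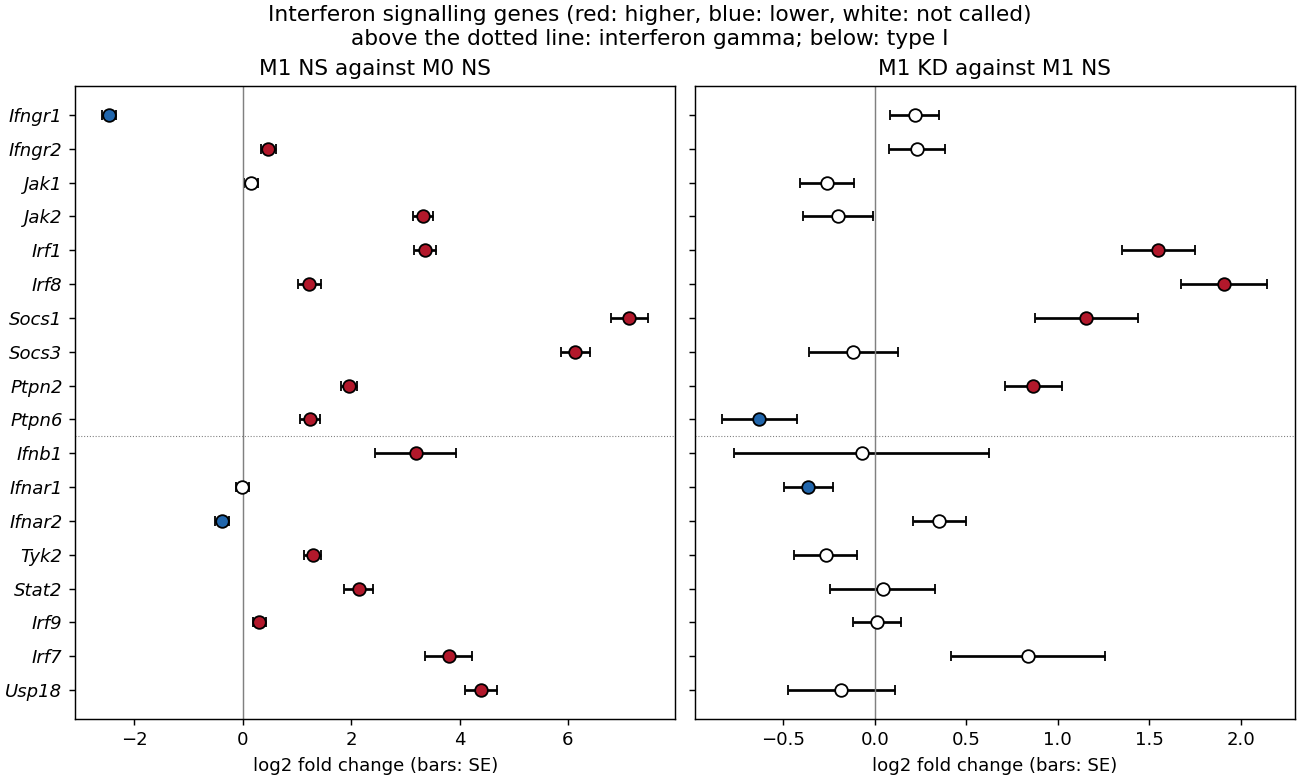
Log2 fold change with SE bars of 10 of the 11 interferon gamma and 8 type I interferon signalling genes in M1 NS against M0 NS (left) and M1 KD against M1 NS (right); red is called higher, blue lower, white not called. Irf8 (1.91) and Irf1 (1.55) lie farthest to the right under the MERRICAL gapmer, while Jak1 and Jak2 are not called.

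Partners of the IRG proteins were read from the same tests. Guanylate-binding proteins are larger interferon-induced GTPases that join IRGs at vacuoles, and all 9 that could be tested of 12 listed rose in M1 NS against M0 NS (median 5.61, or 4.77 with Gbp6, at 0 in M0 NS, entered at the lower bound that a floor of 3 counts over the group gives). The strongest by p were Gbp4 (8.02, adjusted p = 6.11e-09) and Gbp5 (8.33, adjusted p = 2.15e-07). Among all genes tested 26.9% were called higher in that comparison. In M1 KD against M1 NS 2 of the 9 fell, 1 rose and 6 were not called (median -0.05). With 36.8% of all genes called, this count is near the background and no result about the family. Gbp5 fell, with means of 215 and 47.1 CPM (-2.19, SE 0.48, adjusted p = 0.00408), Gbp7 fell (-1.15, adjusted p = 0.0175) and Gbp11 rose, with means of 6.50 and 20.7 CPM (1.67, adjusted p = 0.00920).

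The ATG8 conjugation machinery, which attaches LC3 and GABARAP proteins to lipids, places IRGM proteins and effectors on the right membranes. Of its 12 genes 3 rose, 4 fell and 5 were not called in M1 NS against M0 NS, near the background of 55.5% of all genes called, with Atg16l1 at 0.93 (adjusted p = 4.21e-05) and Map1lc3b at -0.79 (adjusted p = 9.95e-05). With size-only scaling 1 rose and 5 fell, and Atg12 (0.34, among the 3 that rose, called in 10 of 24 other settings) turned to -0.0345, not called. In M1 KD against M1 NS 3 rose and none fell, where 17.6% of all genes were called higher: Map1lc3a (1.38, adjusted p = 1.90e-04), Gabarap (0.96, adjusted p = 0.00133) and Gabarapl1 (0.49, adjusted p = 0.0336, called in 16 of 22 other settings). With upper-quartile scaling 6 rose. Of 7 genes listed for ubiquitin at vacuoles and its adaptors, 5 rose and 2 fell in M1 NS against M0 NS. There 26.9% of all genes tested were called higher and 28.6% lower. The strongest of the 7 by p were Calcoco1 at -2.13 and the ubiquitin ligase gene Trim21 at 1.96. In M1 KD against M1 NS 3 of the 7 rose and 2 fell, where 17.6% of all genes were called higher and 19.2% lower. Calcoco1 was at 1.81 (adjusted p = 1.46e-05) and Trim21 at -1.18 (adjusted p = 3.63e-04). Whether Calcoco1 acts at vacuoles was not tested.

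The genes whose pattern was most like the mean of the 4 were found by the Pearson correlation of log2 CPM over the 11 libraries. It is a description that rests mostly on the M0 and M1 libraries standing apart. Candidates had an average log2 CPM of 3 or more. Symbols made of Gm and digits, or holding Rik, LOC or a clone name, were left out. IRG genes with such names, among them Gm4951, Gm12250 and F830016B08Rik, could therefore not appear. Of 8071 candidates, the 8 most alike were Ifi205, Gbp3, Usp18, Aff1, Slfn4, Traf1, H2-Q6 and Nmi, with r from 0.997 to 0.995. Taken singly, Irgm1 was most like Xaf1 and Zbp1, which stood at 169 and 471 CPM in M1 NS and at 284 and 766 CPM in M1 KD. Irgm2 was most like Trim30c and Parp14, which went the other way, from 271 to 143 CPM and from 3003 to 1463 CPM. The M1 KD libraries were among the 11 used to pick these genes, so shifts like those of Irgm1 and Irgm2 follow from the choice. Igtp was most like Pla2g16 and Traf1, and Iigp1 most like Gbp3 and Aff1.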

How the data were processed

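RNA was sequenced from 11 libraries of mouse macrophages in 4 groups. The submitters' processing notes name the build GRCm38 and the tools STAR 2.5.2b, Trimmomatic 0.36, and Subread 1.5.2 with its featureCounts. The authors deposited a table of raw counts per gene and a second table of normalized signal, in which each library's counts are divided by a constant of their own (checked against the counts). The sources used here give neither the strand setting nor the annotation. An entry with a blank name, at most 0.000299% of a library's counts, was left out.

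Raw counts were tested with edgeR 4.0.16 in R 4.3.3: filterByExpr (minimum count 10, total at least 15), TMM scaling, and a single quasi-likelihood fit with robust option over all 11 libraries, which share an estimate of the spread since M1 KD has 2 libraries. P-values were Benjamini-Hochberg adjusted over 15024 genes, with a threshold of 0.05. Intervals are 95% intervals from the SE. The edgeR test was tried on simulated counts for M1 NS against M0 NS and M0 KD against M0 NS only. The other comparisons and steps were not tried in this way. Limma 3.58.1 and DESeq2 1.42.0 served as alternatives. The 4 genes and the lists were chosen with earlier results of these data known. Named were every member, the 2 called genes with the smallest p in each list, the receptors, kinases and factors of interferon gamma signalling, and the most alike genes. 1 gene of the interferon gamma signalling list counts in its totals but is not reported here. Gene positions and lengths come from the GENCODE annotation of GRCm38, which may not be the authors'. Deviations of libraries with the same label number from their group means correlated over genes at 0.14, 0.02 and 0.12 between M0 NS and M0 KD and at 0.09, -0.08 and -0.08 between M0 NS and M1 NS, so the numbers were not taken to pair libraries.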

Additional observations from a re-analysis of the deposited data

Results flagged for a closer look

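Of the 13 other IRG genes, 6 showed a difference of the gapmer's effect between M1 and M0 cells that passed edgeR's quasi-likelihood test, where 27.3% of all genes tested did. Whether these genes differ from the 4 members, of which none passed, was not tested. The M1 KD against M1 NS log2 fold change minus that of M0 KD against M0 NS was tested as an interaction term, with Benjamini-Hochberg adjustment over all genes. The difference was -3.52 for Gm4841 (SE 0.65, adjusted p = 0.00245), -2.17 for Tgtp1 (SE 0.57, adjusted p = 0.0151), -2.15 for F830016B08Rik (SE 0.69, adjusted p = 0.0371), -1.97 for Tgtp2 (SE 0.63, adjusted p = 0.0362) and -1.04 for 9930111J21Rik1 (SE 0.32, adjusted p = 0.0311). It was positive for Irgq, at 0.51 (SE 0.16, adjusted p = 0.0369). Over 21 other settings Gm4841 was called in 21, Tgtp1 in 19, 9930111J21Rik1 in 15, Tgtp2 in 12, F830016B08Rik in 11 and Irgq in 10. The count of 5 lower ran from 1 to 8 and that of 1 higher from 0 to 1. The lower count was 3 without M0 NS 1, M1 NS 4 or M1 KD 5, 2 without M0 KD 1, M0 KD 4 or M1 NS 1, and 1 without M1 KD 6 or at an adjusted p under 0.01. In M0 cells Gm4841, Tgtp1 and F830016B08Rik were under 4 CPM on average in both groups, so their M0 fold changes rest on few counts.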

How the results depend on the processing

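In M1 NS against M0 NS and in M1 KD against M0 KD all 4 genes were called higher under each of 24 and 22 other settings (scaling, filters, tools, thresholds, fewer libraries). In M1 KD against M1 NS the count of called members, 1 as reported, was 0 with RLE size factors, 0 at an adjusted p under 0.01, 0 with limma-voom, 2 with DESeq2, 2 in a fit of those groups alone, 3 without a filter on low counts (Irgm1 higher, Irgm2 and Iigp1 lower), and 0 to 2 when each library was left out in turn. Irgm2 was not called without M0 NS 1, M0 KD 1, 2 or 4, M1 NS 1, 2 or 4, or M1 KD 5. In M0 KD against M0 NS no member was called under any setting, while over all genes 385 were called without the filter, 221 with DESeq2, 1103 in a fit of the M0 libraries alone, and 0 to 1 with a library left out. For M1 KD against M1 NS, 5535 genes as reported became 3258 at an adjusted p under 0.01, 3104 in a fit of those groups alone, and 3658 to 5796 with a library left out. For the difference of the gapmer's effects, 4095 became 1956 at an adjusted p under 0.01 and 2949 to 4751 with a library left out, and 0 called members became 0 to 1 (Irgm1 without M0 NS 4, 0.95, edgeR adjusted p = 0.0186). For this difference 59.2% of calls were higher with upper-quartile scaling, against 48.0% with TMM.

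Among the values of the 4 genes only uncalled ones changed sign. Of the called values in the other lists, size-only scaling turned Irf9 (0.31 to -0.0802) and Atg12 (0.34 to -0.0345) in M1 NS against M0 NS and Irf9 (0.39 to -0.0902), Atg12 (0.41 to -0.0734) and Atg3 (0.36 to -0.13) in M1 KD against M0 KD. For Igtp the value in M1 KD against M1 NS was 0.0065 with upper-quartile scaling and -0.39 to 0.0562 with a library left out, and its difference of effects was -0.0559 with size-only scaling and -0.22 to 0.28 with a library left out. In M0 KD against M0 NS leaving out a library gave -0.26 to 0.35 for Irgm1, -0.38 to 0.19 for Irgm2, -0.42 to 0.0764 for Igtp and -0.67 to 0.46 for Iigp1, and for Iigp1 the difference of effects ran from -1.06 to 0.0760. The cause of these changes was not tested. With the label number as a replicate block over the 9 libraries numbered 1, 2 and 4, 4 members were called in M1 NS against M0 NS and 0 in M0 KD against M0 NS, with 8048 and 0 genes called over all, against 8350 and 0 in the same libraries without the block (a fit added after the data were seen). No block was possible for M1 KD, whose numbers are its own. Without M1 KD 5 or 6 the remaining library is assumed to vary like the other groups.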
